A study of Drosophila melanogaster with 62 samples.

Results

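The mtgo region is a stretch of 120 bins of 1 kb on chromosome arm 2L of Drosophila melanogaster (dm6, 16540001 to 16660000), out of 23514 bins on that arm. It covers nearly all of mtgo (miles to go, FBgn0259735, 2L 16545016 to 16663218, plus strand) and begins 53 kb from PRE2, one of the paired Polycomb response elements of the dac locus, on the side away from PRE1. The stretch was selected on earlier values of these same libraries, in which its share of 4C-seq counts was higher in flies with a gypsy insertion than in WT. The insertion comparisons are therefore given as a description with no test. From PRE2 its share was higher in gypsy2 flies than in WT at each stage and in gypsy1 embryos, although the larval and gypsy1 libraries overlapped WT once only counts over 200 kb away served as the whole. Against the label of a gain, the gypsy2 viewpoint gave a share that was higher in embryo gypsy2 only, overlapped WT in gypsy1 and in pupal gypsy2, and was lower in larval gypsy2.

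A Polycomb response element is a DNA element that recruits Polycomb group proteins, and distant elements of this kind can meet in a loop. The gypsy element of flies carries an insulator, a cluster of binding sites for Su(Hw) that can limit contacts between sequences on either side of it. In 4C-seq, DNA ligated to a chosen viewpoint is sequenced, so that the count of a bin follows how often it was ligated to the viewpoint. The gene mtgo encodes a protein of the FNDC3 family, known in flies from the growth of the neuromuscular junction, and dac encodes a transcription factor of leg, eye and brain development.

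The flies studied were labelled with a gypsy insertion called gypsy1 (whole embryos) or gypsy2 (whole embryos, larval imaginal leg discs and pupal imaginal leg discs), against flies labelled wild type (WT) at the same stages. A further group of embryos was titled WT while its genotype field gave an insertion, and it is called titled WT and kept apart. Each of the 8 groups held 3 libraries counted from each of 2 viewpoints, PRE2 (2L 16487001 to 16488000) and a viewpoint named gypsy2, 22 kb nearer to PRE1 (2L 16465001 to 16466000). The gypsy2 columns also carry the letters enh, which no source explains for these flies. No source used here gives the sites of the insertions, whether a line was a single clone, or the number of animals behind a library, so the spread between libraries may be technical, and stage and tissue cannot be told apart between embryos and discs. Libraries held between 800269 and 25904672 counts. Embryo gypsy1 and WT libraries held at most 1466765 and embryo gypsy2 and titled WT libraries at least 14352639, so depth moved with the group where embryo gypsy2 was set against WT, and its part in the result was not tested. Taken as if each count were a separate ligation, counting error was small beside the spread between libraries. The smallest number of counts in the mtgo region was 14888 (0.820%), although 6 to 30 of its bins held 0 counts. Any larger error from PCR copies was not measured. In these bulk samples a contact made in fewer cells and a weaker contact in every cell cannot be told apart.

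The first annotated transcript start of mtgo in the region lies at 16545016 and the last at 16657097. The 200 bases before each are shown because the windows that hold them are described one by one further on. Capitals mark GAGAG or its reverse complement CTCTC, the letters of the GAGA factor motif searched on both strands, and the lines run 5′ to 3′ on the plus strand of dm6 at chr2L:16544816-16545015 and chr2L:16656897-16657096.
mtgo first start: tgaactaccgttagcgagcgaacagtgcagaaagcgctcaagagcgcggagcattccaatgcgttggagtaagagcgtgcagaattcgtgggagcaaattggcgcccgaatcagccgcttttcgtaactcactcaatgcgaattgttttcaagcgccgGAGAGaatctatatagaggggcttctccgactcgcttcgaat
mtgo last start: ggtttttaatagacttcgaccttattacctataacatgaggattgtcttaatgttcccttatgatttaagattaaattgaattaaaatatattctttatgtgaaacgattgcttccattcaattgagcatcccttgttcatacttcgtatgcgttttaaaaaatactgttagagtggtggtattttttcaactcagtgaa
The bases before the first start held 1 match and those before the last held 0, where 24.7% of the 3687 distinct protein-coding transcript starts of 2L had at least 1 match in the same 200 bases. The match is a description of letters, not of binding. The region as a whole had 1.56 matches per kb against 1.5 on all of 2L, and a GC content of 38.5% against 41.8%.

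In WT the region made up a few percent of the 2L counts taken outside 5 kb of the viewpoint, the share used throughout. From PRE2 the WT libraries had 4.16, 4.51 and 4.04% in embryos, 3.92, 4.40 and 4.02% in larval discs and 2.89, 2.90 and 3.05% in pupal discs. From the gypsy2 viewpoint the WT libraries had 2.48, 2.82 and 2.57% in embryos, 2.25, 2.11 and 2.13% in larval discs and 1.65, 1.71 and 1.87% in pupal discs. The share was thus lower from the gypsy2 viewpoint than from PRE2 in each of the 9 WT libraries, by 0.79 on the log2 scale on average (0.128 SD, n = 9; exact two-sided sign-flip test, p = 0.00391, the smallest it can give, and 0.00391 after adjustment over 3 such tests). These bins lie 75 to 194 kb from the gypsy2 viewpoint and 53 to 172 kb from PRE2, and 4C-seq counts fall with distance. The test therefore cannot separate distance from any other difference between the viewpoints. The share of the region was also lower than that of the mirror region, the 120 bins equally far from the viewpoint towards the PRE1 side. For PRE2 this stretch (16315001 to 16435000) holds CG5888, in whose intron PRE1 lies, while for the gypsy2 viewpoint it is another stretch (16271001 to 16391000) that ends before CG5888. The log2 ratio of mean counts per bin, region over mirror region, was -2.31 ± 0.293 from PRE2 and -1.75 ± 0.233 from the gypsy2 viewpoint (SD, n = 9 each; exact two-sided sign-flip tests, p = 0.00391 and adjusted p = 0.00391 for both). These WT libraries also entered the choice of the region.

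Over development the WT share from PRE2 was 2.95 ± 0.0894% in pupal discs and 4.12 ± 0.252% in larval discs (SD, n = 3 each), without overlap of the libraries and with a log2 difference of -0.48. From the gypsy2 viewpoint it was 1.74 ± 0.118% in pupal discs and 2.17 ± 0.0749% in larval discs, a log2 difference of -0.32. Larval discs, at the means just given, and embryos, with 4.23 ± 0.246% from PRE2 and 2.62 ± 0.180% from the gypsy2 viewpoint, differed by -0.04 and -0.28. The exact two-sided permutation test gave p = 0.1 for pupa minus larva from both viewpoints and for larva minus embryo from the gypsy2 viewpoint, and p = 0.5 for larva minus embryo from PRE2; over the 6 tests the adjusted values were 0.15 and 0.50. With 3 libraries against 3 no p below 0.1 is possible, so no change of the whole region passed a test.

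With gypsy2 the share from PRE2 was higher than in WT at all 3 stages, in every library. Embryo gypsy2 libraries had 4.89, 5.36 and 5.24%, against 4.36, 4.55 and 4.50% in titled WT and 4.16, 4.51 and 4.04% in WT. The log2 difference was 0.21 from titled WT and 0.29 from WT. The embryo means were 5.17% in gypsy2, 4.47% in titled WT and 4.23% in WT. Of these, the last window alone (16654001 to 16660000) held 1.41, 1.11 and 0.621%, so it made up much of the difference from WT. The embryo difference without this window was not computed. Larval gypsy2 libraries had 5.13, 5.63 and 4.92%, against 3.92, 4.40 and 4.02% in WT, a log2 difference of 0.34. Pupal gypsy2 libraries had 3.63, 3.82 and 3.89%, against 2.89, 2.90 and 3.05% in WT, a log2 difference of 0.36. Embryo gypsy1 libraries had 4.55, 5.19 and 4.91%, a log2 difference of 0.21 from WT, with the lowest gypsy1 library just above the highest WT library. The plot of region shares shows the groups apart in each of these comparisons.

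**Figure D1:**
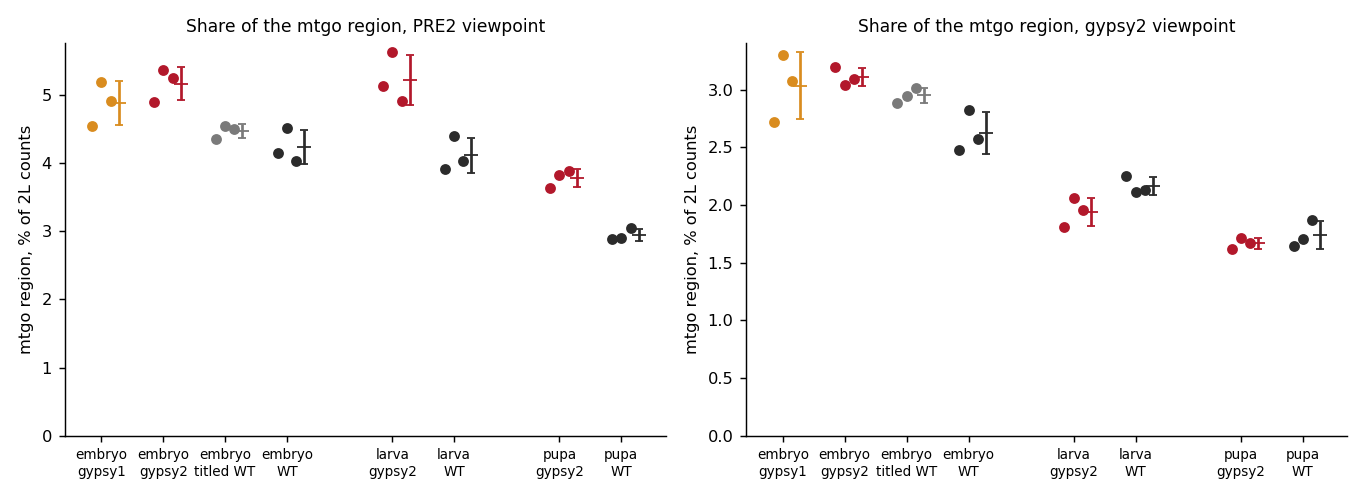
Share of the mtgo region in the 2L counts outside 5 kb of the viewpoint (y axis, percent), per library (points) with mean and SD beside them (n = 3), for embryos, larval discs and pupal discs. From PRE2 (left) gypsy2 lay above WT at every stage; from the gypsy2 viewpoint (right) gypsy2 lay above WT in embryos, with 3.20, 3.05 and 3.10%, and below WT in larval discs, with 1.81, 2.06 and 1.95%.

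From the gypsy2 viewpoint the picture differed by stage. Embryo gypsy2 libraries had 3.20, 3.05 and 3.10%, against 2.88, 2.95 and 3.02% in titled WT and 2.48, 2.82 and 2.57% in WT. The log2 differences were 0.08 from titled WT and 0.25 from WT, both without overlap. Larval gypsy2 libraries had 1.81, 2.06 and 1.95%, against 2.25, 2.11 and 2.13% in WT, so that every gypsy2 library was below every WT library (log2 difference -0.16). Pupal gypsy2 libraries had 1.62, 1.72 and 1.67%, against 1.65, 1.71 and 1.87% in WT, with overlap and a log2 difference of -0.06. Embryo gypsy1 libraries had 2.72, 3.30 and 3.08%, which overlapped WT. The difference between stages was not tested.

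A share depends on the rest of the counts. From PRE2, the 500 kb on the PRE1 side took 31.4 to 32.4% of the counts in embryo gypsy2 and 36.8 to 38.0% in WT, 31.9 to 35.6% in larval gypsy2 and 38.2 to 44.9% in WT, and 31.7 to 32.2% in pupal gypsy2 and 35.3 to 36.8% in WT. The part of this in the shares of the mtgo region was not tested beyond taking the 2L counts over 200 kb away as the whole. Then the log2 difference from PRE2 was 0.18 in larvae and 0.13 for gypsy1, both with overlap of the libraries, and 0.22 and 0.30 for gypsy2 in embryos (against WT) and pupae, without overlap. From the gypsy2 viewpoint the larval difference was then -0.09 with overlap, the pupal one 0.03, of the other sign, and that of embryo gypsy2 from titled WT 0.03 with overlap.

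Neighbouring stretches are given side by side, with no test of the difference. From PRE2, the 120 kb beyond the region (2L 16660001 to 16780000) differed between gypsy2 and WT by 0.23 in embryos, 0.18 in larvae and 0.13 in pupae on the log2 scale, and the 42 bins over Tpr2 and CG5953, between PRE2 and the region, by 0.15, 0.25 and 0.04, with overlap of the libraries in pupae for both stretches. The same values of the mtgo region were 0.29, 0.34 and 0.36. Against titled WT, embryo gypsy2 differed by 0.04 with overlap in the 120 kb beyond and by 0.21 in the mtgo region. Over Tpr2 and CG5953 it differed by -0.06, with every gypsy2 library lower. Embryo gypsy1 minus WT from PRE2 was 0.21 both over Tpr2 and CG5953 and in the mtgo region, without overlap. In the 120 kb beyond it was 0.07 with overlap. From the gypsy2 viewpoint it was 0.27 without overlap over Tpr2 and CG5953. There the mtgo region had 0.21 and the 120 kb beyond 0.15, both with overlap.

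Which bases of the region carried the difference was followed in 20 windows of 6 kb. Each was also fitted with edgeR (quasi-likelihood test, adjusted p under 0.05, over every window up to 500 kb away whose counts averaged 10 or more). For the insertion comparisons these calls involve the values that chose the region, and they are only listed. From PRE2, embryo gypsy2 against WT had 12 of 20 windows called (8 higher and 4 lower; 32.1% of all windows called), embryo gypsy2 against titled WT 4 (all higher; 22.2% of all), embryo gypsy1 against WT 4 (all higher; 9.26% of all), larval gypsy2 against WT 9 (8 higher and 1 lower; 17.3% of all) and pupal gypsy2 against WT 7 (all higher; 17.9% of all). Libraries of gypsy1 and WT whose columns share a number deviated together, and with that number as a block 10 windows were called for gypsy1 from PRE2, all higher, where 29.6% of all windows were called with the block. The larval count rested on single libraries, being 1 without WT replicate 1 and also 1 without WT replicate 3, 5 without gypsy2 replicate 2, and 3 when library sizes were set from counts over 200 kb away. Seen from the gypsy2 viewpoint, embryo gypsy2 against WT had 12 windows called (9 higher and 3 lower; 36.8% of all) and against titled WT 11 (5 higher and 6 lower; 31.3% of all), while embryo gypsy1 (0.617% of all), larval gypsy2 (4.94% of all) and pupal gypsy2 (8.59% of all) had 0 of 20 called by edgeR, 1, 2 and 0 by DESeq2, and 4, 3 and 2 at an unadjusted edgeR p under 0.05. With the block gypsy1 had 4 there, where 12.3% of all windows were called.

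In the comparisons without gypsy1 or gypsy2 flies the libraries also entered the choice of the region, so the calls are listed beside the background as a description. Embryo titled WT against WT had 12 windows called from PRE2 (6 higher and 6 lower; 37.7% of all) and 7 from the gypsy2 viewpoint (all higher; 27.6% of all). WT larva against WT embryo had 8 called from PRE2 (5 higher and 3 lower; 22.2% of all) and 6 from the gypsy2 viewpoint (all lower; 26.5% of all). WT pupa against WT larva had 9 called from PRE2, all lower, where 11.7% of all windows were called, and 7 from the gypsy2 viewpoint (1 higher and 6 lower; 17.9% of all). From PRE2 the region had 12 windows called for titled WT against WT and 4 for embryo gypsy2 against titled WT. Over all windows the shares called ran the same way (37.7% and 22.2%). From the gypsy2 viewpoint the order was reversed, with 7 and 11 in the region and 27.6% and 31.3% of all. Nothing is read from this order, and depth and replicate numbers moved with titled WT against WT too.

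**Figure D2:**
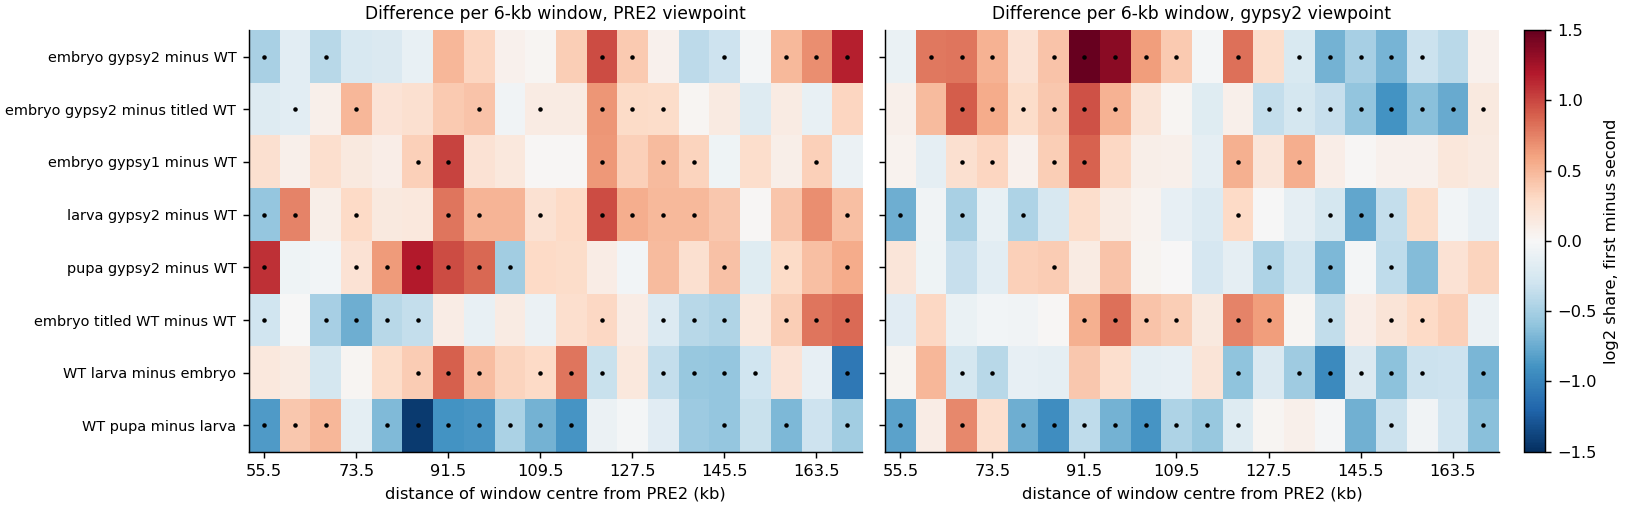
Log2 share per 6-kb window, first group minus second (colour; scale from -1.5 to 1.5), against the distance of the window centre from PRE2 in kb, for 8 comparisons and both viewpoints. Dots mark windows in which the 3 libraries of one group all lay beyond the 3 of the other; the PRE2 panel shows the window at 121.5 kb higher in embryo and larval gypsy2 and the windows at 79.5 to 97.5 kb higher in pupal gypsy2.

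The windows that differed were not the same at each stage. From PRE2, gypsy2 libraries lay above all WT libraries in 5 of 20 windows in embryos (17.9% of all windows), 10 in larvae (16.7% of all) and 9 in pupae (14.2% of all). They lay below all WT libraries in 3 windows in embryos (19.8% of all), 1 in larvae (14.8% of all) and 1 in pupae (17.9% of all). Nothing is read from these counts, since the comparison chose the region. Only 1 window, the last (16654001 to 16660000), lay above WT in this way at all 3 stages; with titled WT as the embryo control there were 2, at 16558001 to 16564000 and 16582001 to 16588000. Of the 120 single bins, 8 lay above WT at all 3 stages from PRE2. They start at 16542001, 16557001, 16569001, 16581001, 16620001, 16651001, 16654001 and 16656001. Another 3 lay below, at 16540001, 16555001 and 16637001. From the gypsy2 viewpoint 1 lay above and 2 below. The share of other bins doing so from 1 viewpoint was not counted, so nothing is read from these bins. Across the 20 windows the log2 differences in embryos (from WT) and larvae had a Pearson correlation of 0.60, those in embryos and pupae 0.01, and those in larvae and pupae -0.26. With titled WT as the embryo control the values were 0.45 with larvae and 0.24 with pupae. These describe windows of the same libraries and carry no p. The groups differ between stages, but all share the bins and their sequence.

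The proximal 60 kb (16540001 to 16600000) and the distal 60 kb (16600001 to 16660000) of the region, a division that was set after the values were seen, differed by unequal amounts. From PRE2 the distal 60 kb had 3.40 ± 0.235% in embryo gypsy2, 2.89 ± 0.0722% in titled WT and 2.31 ± 0.0569% in WT, and 2.53 ± 0.137% in larval gypsy2 and 1.85 ± 0.115% in WT (SD, n = 3 each). Of the embryo means, the last window (16654001 to 16660000) held 1.41% in gypsy2, 1.11% in titled WT and 0.621% in WT. Embryo gypsy2 minus WT was 0.56 in the distal 60 kb, without overlap, and -0.12 in the proximal 60 kb, with overlap. Against titled WT both were higher without overlap, by 0.23 and 0.16, and with counts over 200 kb away as the whole the distal libraries overlapped (0.17) and the proximal ones did not (0.11). Titled WT minus WT was itself 0.32 in the distal 60 kb and -0.28 in the proximal 60 kb, both without overlap. Larval gypsy2 was higher than WT without overlap in both, by 0.45 and 0.25. The proximal 60 kb had 2.16 ± 0.0348% in pupal gypsy2 and 1.56 ± 0.0915% in WT, a log2 difference of 0.47, where the distal 60 kb differed by 0.23 with overlap. Viewed from gypsy2, the proximal 60 kb had 1.87 ± 0.0385% in embryo gypsy2, 1.43 ± 0.0505% in titled WT and 1.29 ± 0.104% in WT, without overlap. The distal 60 kb there had 1.25 ± 0.0701% in embryo gypsy2 and 1.53 ± 0.0196% in titled WT, lower in every gypsy2 library, while it overlapped with the 1.33 ± 0.0770% of WT. None of these differences between the proximal and the distal 60 kb was tested.

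**Figure D3:**
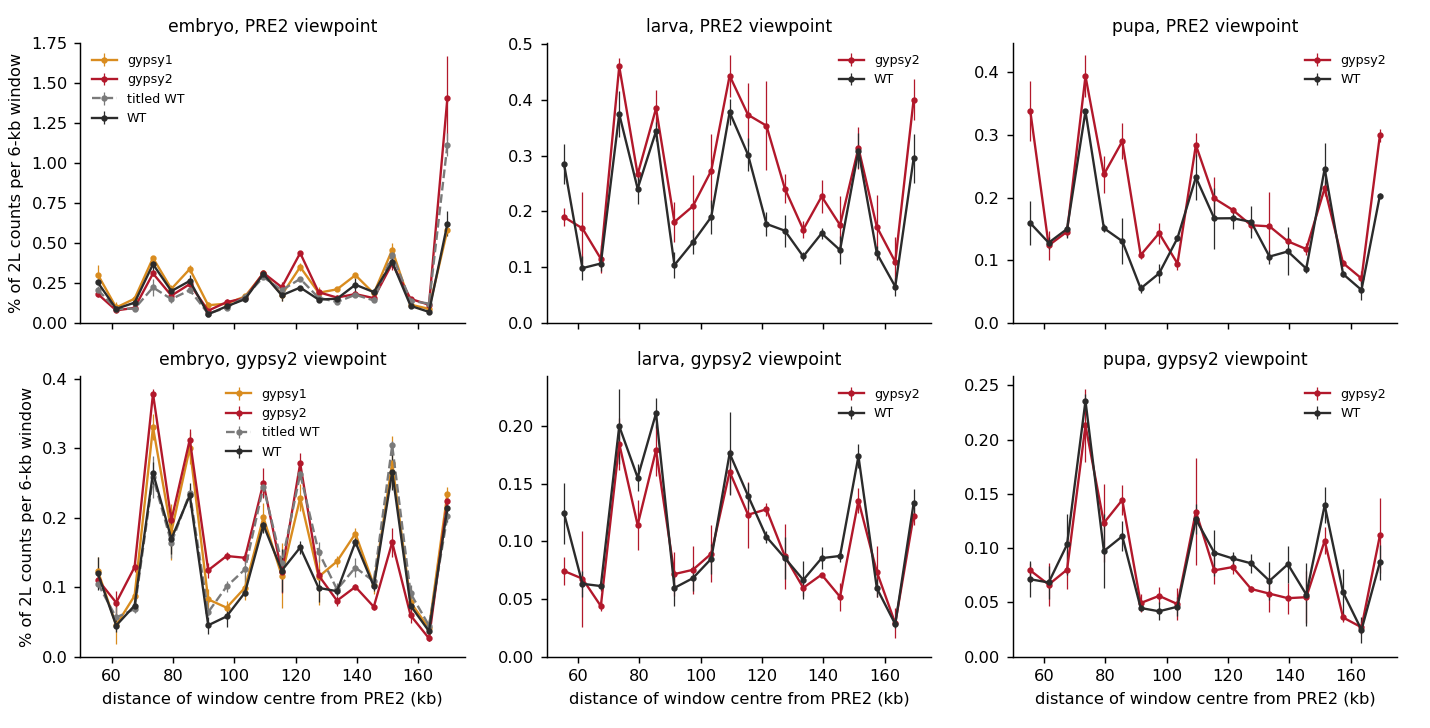
Mean share per 6-kb window (y axis, percent of 2L counts; bars are SD, n = 3) along the mtgo region, as the distance of the window centre from PRE2 in kb, by stage and viewpoint. From PRE2 the WT profile is among its highest near 73.5, 109.5 and 151.5 kb at every stage. The window at 169.5 kb is high in embryos, with 1.41% in gypsy2, 1.11% in titled WT and 0.621% in WT from PRE2.

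The window at 121.5 kb (16606001 to 16612000) holds all of CG4631 and most of CG31815, genes that lie inside an intron of mtgo on the same strand and that are known by number alone. From PRE2 it had 0.429, 0.453 and 0.432% in embryo gypsy2, 0.374, 0.329 and 0.350% in gypsy1, 0.270, 0.282 and 0.277% in titled WT and 0.218, 0.231 and 0.219% in WT, with no overlap between any pair of these groups. The log2 differences were 0.98 for gypsy2 and 0.65 for gypsy1 from WT, and 0.66 for gypsy2 from titled WT. Larval gypsy2 libraries had 0.431, 0.359 and 0.271%, against 0.158, 0.200 and 0.175% in WT (log2 difference 0.97). Pupal gypsy2 libraries had 0.180, 0.185 and 0.176%, against 0.164, 0.152 and 0.186% in WT, which overlapped (0.12). With the gypsy2 viewpoint embryo gypsy2 libraries had 0.276, 0.294 and 0.265%, against 0.258, 0.270 and 0.261% in titled WT, which overlapped, and 0.152, 0.152 and 0.168% in WT, which did not. Titled WT was higher than WT in this window from both viewpoints, without overlap, by 0.31 from PRE2 and 0.74 from the gypsy2 viewpoint.

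The last window, at 169.5 kb (16654001 to 16660000), holds the last mtgo start shown above. From PRE2 it had 1.11, 1.60 and 1.51% in embryo gypsy2, 1.12, 1.18 and 1.04% in titled WT, 0.578, 0.598 and 0.568% in gypsy1 and 0.613, 0.547 and 0.702% in WT. The deep groups, gypsy2 and titled WT, were thus high and the shallow groups, gypsy1 and WT, low, and gypsy2 overlapped with titled WT (log2 difference 0.32). Titled WT minus WT was 0.85 on the log2 scale. Among WT flies the window was lower in larvae than in embryos (-1.08) and lower in pupae than in larvae (-0.53), without overlap. Larval gypsy2 libraries had 0.433, 0.361 and 0.406%, against 0.304, 0.334 and 0.248% in WT, and pupal gypsy2 libraries 0.292, 0.312 and 0.294%, against 0.205, 0.207 and 0.198% in WT, higher without overlap by 0.45 and 0.56. Its log2 differences between gypsy2 and WT from the gypsy2 viewpoint were 0.07, -0.12 and 0.33 at the 3 stages, all with overlap.

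The intronic windows at 91.5 and 97.5 kb (16576001 to 16588000), with no annotated exon, included the window with the highest mean difference of gypsy2 from WT over the 3 stages from PRE2, the first of the pair (16576001 to 16582000). From PRE2 the first of them had 0.160, 0.222 and 0.161% in larval gypsy2, against 0.0914, 0.131 and 0.0896% in WT, and 0.115, 0.104 and 0.107% in pupal gypsy2, against 0.0642, 0.0495 and 0.0526% in WT. In embryos gypsy2 had 0.0913, 0.0787 and 0.0652%, against 0.0506, 0.0662 and 0.0621% in titled WT and 0.0529, 0.0709 and 0.0441% in WT, with overlap, and gypsy1 0.0948, 0.134 and 0.108%, above all WT libraries. Counted from gypsy2 it had 0.128, 0.112 and 0.133% in embryo gypsy2, against 0.0619, 0.0605 and 0.0702% in titled WT and 0.0337, 0.0586 and 0.0437% in WT, log2 differences of 0.96 and 1.49. Larval and pupal gypsy2 overlapped with WT there. The second of these windows differed from WT by 0.32, 0.51 and 0.87 from PRE2 and by 1.35, 0.12 and 0.43 from the gypsy2 viewpoint at the 3 stages. In WT the first of them was higher in larvae than in embryos from PRE2 (log2 difference 0.90) and lower in pupae than in larvae (-0.89), without overlap.

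**Figure D4:**
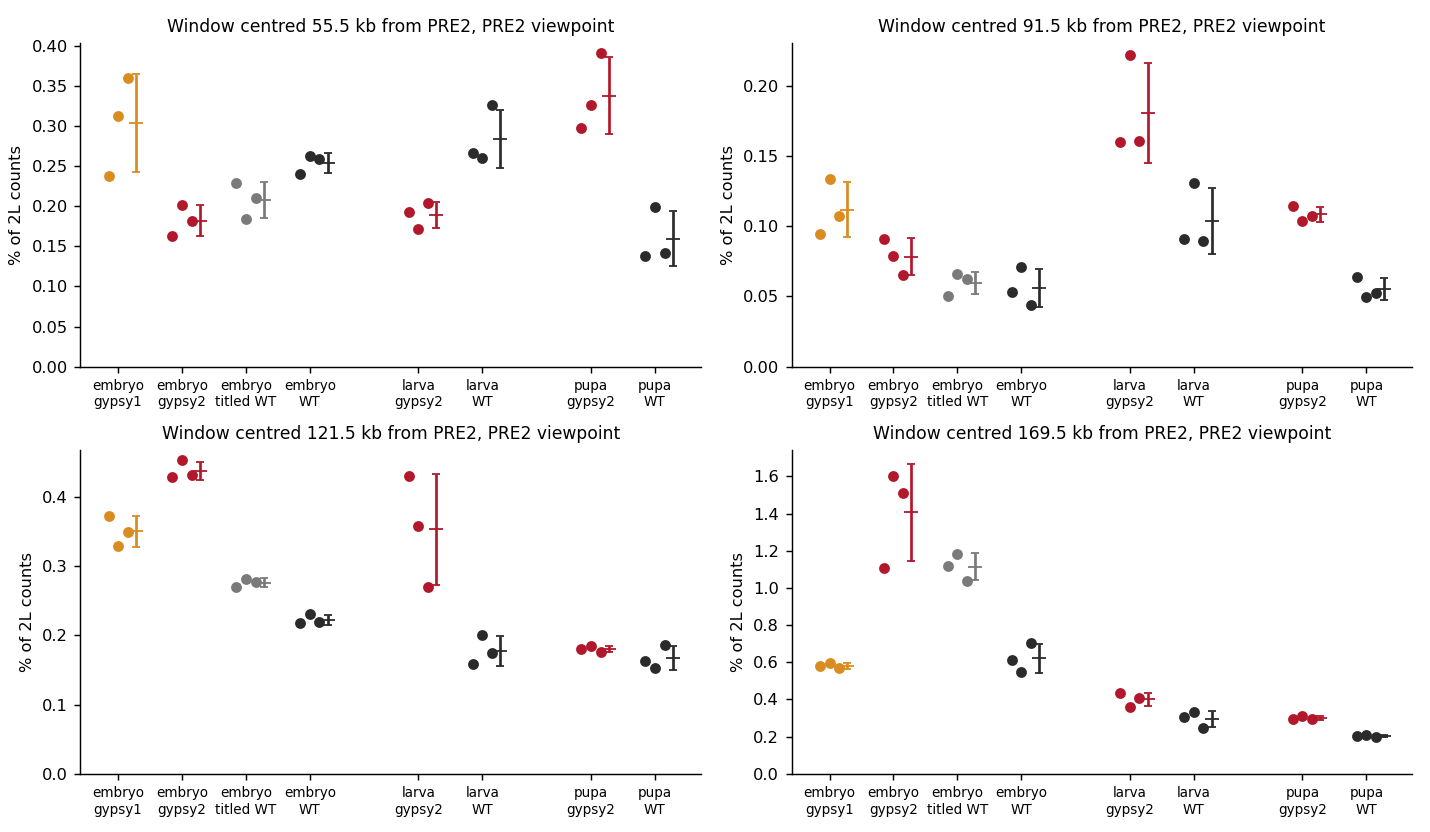
Share of 4 windows of the mtgo region from PRE2 (y axis, percent of 2L counts) per library (points), with mean and SD beside them (n = 3). At 55.5 kb gypsy2 lies below WT in embryos and larvae and above it in pupae. At 121.5 kb it lies above WT in embryos and larvae and overlaps in pupae, and at 169.5 kb embryo gypsy2 and titled WT are both above WT.

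The first window, at 55.5 kb (16540001 to 16546000), holds CG31816 and the first mtgo start, and it differed in opposite directions. From PRE2 it had 0.163, 0.202 and 0.182% in embryo gypsy2, against 0.229, 0.184 and 0.211% in titled WT, which overlapped, and 0.241, 0.264 and 0.259% in WT. Larval gypsy2 libraries had 0.193, 0.172 and 0.204%, against 0.267, 0.261 and 0.326% in WT (log2 difference -0.58). Pupal gypsy2 libraries had 0.298, 0.326 and 0.391%, against 0.138, 0.200 and 0.141% in WT (1.10). The WT level itself was lower in pupae than in larvae (log2 difference -0.85, without overlap).

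The other windows chosen by the rule differed less or both ways. The window at 115.5 kb (16600001 to 16606000) overlapped between gypsy2 and WT at each stage from PRE2, with log2 differences of 0.37, 0.30 and 0.28, and it was higher in WT larvae than in WT embryos (0.80, without overlap). The window of CG5968 (16546001 to 16552000) was higher only in larvae from PRE2 (0.74, no overlap). In embryos every gypsy2 library lay below every titled WT library in it. The window at 73.5 kb (16558001 to 16564000), among the highest of WT, was higher without overlap in larvae (0.30), in pupae (0.22) and in embryos against titled WT (0.50), but not against WT (-0.24), and titled WT was below WT in it (-0.74, without overlap). For the gypsy2 viewpoint the windows at 139.5, 145.5 and 151.5 kb (16624001 to 16642000) had the lowest mean differences: gypsy2 minus WT was -0.71, -0.50 and -0.69 in embryos, -0.26, -0.78 and -0.36 in larvae and -0.68, -0.03 and -0.39 in pupae. Without the single bin at 150 kb described next, the last of these was -0.31, -0.13 and -0.12 with overlap at each stage.

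The bins with the highest WT share from PRE2 were those at 16560001, 16597001 and 16588001. The last of them had 0.0432, 0.0353 and 0.0517% in pupal gypsy2, against 0.0978, 0.106 and 0.0776% in WT, but 0.111, 0.119 and 0.0942% in embryo gypsy2, against 0.103, 0.123 and 0.0916% in WT, so it was lower in pupae and overlapped in embryos. Larval gypsy2 had 0.180, 0.206 and 0.130% there, against 0.110, 0.155 and 0.119% in WT, with overlap and the higher mean in gypsy2. The bin at 16560001 had 0.10, 0.0974 and 0.101% in embryo gypsy2, against 0.0866, 0.0750 and 0.102% in titled WT, which overlapped, and 0.158, 0.155 and 0.136% in WT, which were all higher. In larvae and pupae its gypsy2 and WT libraries overlapped. The bin at 16597001 had 0.146, 0.131 and 0.134% in larval gypsy2, against 0.114, 0.124 and 0.123% in WT, higher without overlap, and it overlapped in embryos and pupae.

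Some of the differences lay in single bins. Of the 120 bins, 3 differed between gypsy2 and WT in the same direction, without overlap, at all 3 stages and from both viewpoints (2.5%), as did 10 of the 837 other bins within 500 kb (1.19%). The bin at 150 kb (16637001 to 16638000, intronic) had 103, 192 and 107 counts from PRE2 in embryo gypsy2, where the much shallower WT libraries had 370, 681 and 592. As shares these were 0.00149, 0.00426 and 0.00252% in gypsy2, against 0.132, 0.113 and 0.103% in titled WT, 0.137, 0.142 and 0.134% in gypsy1 and 0.0955, 0.10 and 0.104% in WT. In larvae it held 0, 0 and 1 counts in gypsy2, against 665, 446 and 1092 in WT, and in pupae 251, 4 and 391, against 2210, 3631 and 4158. The bin at 55 kb (16542001 to 16543000, at the start of CG31816) went the other way: its PRE2 share was 0.0352, 0.0469 and 0.0369% in embryo gypsy2, against at most 0.00255% in titled WT, gypsy1 and WT embryos, 0.0280, 0.0238 and 0.0481% in larval gypsy2, against 0, 0.0138 and 0.00126% in WT, and 0.0259, 0.0546 and 0.0544% in pupal gypsy2, against 0.00133, 0.000363 and 0.00365% in WT. The bin at 68 kb (16555001 to 16556000) had at most 0.00271% in any gypsy2 library from PRE2 and at least 0.00361% in any WT library. In embryos this bin had 0.0116, 0.0112 and 0.0174% in titled WT, while gypsy1 had 0, 0.00849 and 0.00194%, of which 2 libraries lay below the highest gypsy2 library. Whether a share near 0 in these bins reflects contact, or how the bin's DNA is digested and mapped in the flies concerned, cannot be told apart in these data. In all 3 bins the titled WT libraries lay on the side of WT and not of gypsy2. At 55 and 150 kb the gypsy1 libraries, from flies with an insertion, did so too. These bins therefore do not tell which genotype titled WT had.

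**Figure D5:**
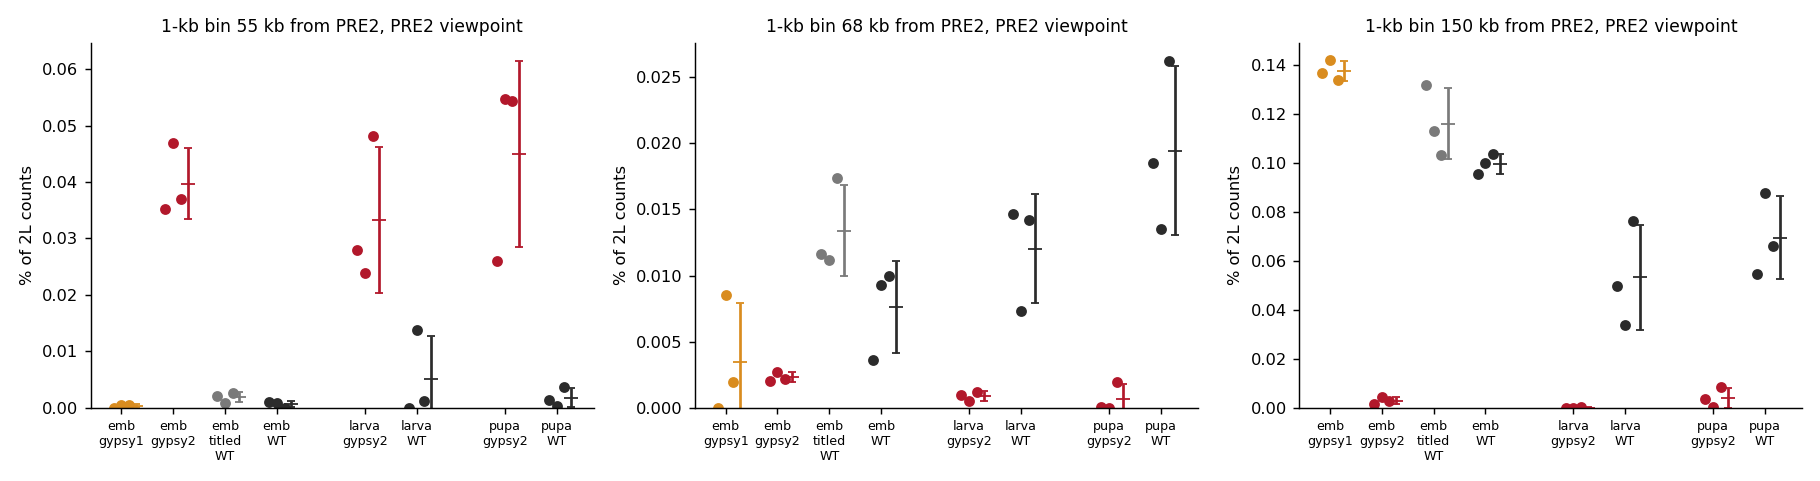
PRE2 share (y axis, percent of 2L counts) of the 3 bins that differed the same way between gypsy2 and WT at every stage and from both viewpoints, per library (points), with mean and SD beside them (n = 3). The bin at 150 kb is at or below 0.00834% in every gypsy2 library and at or above 0.0338% in every other one; these bins were picked for this pattern.

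The regional difference from PRE2 was as large without the 3 bins. Left out, the log2 difference of gypsy2 from WT was 0.31 in embryos, 0.36 in larvae and 0.39 in pupae. They did set the window of the bin at 150 kb, where gypsy2 minus WT from PRE2 was -0.03, 0.02 and -0.18 with all bins and 0.40, 0.30 and 0.29 without that bin. In the first window the values without the bin at 55 kb were -0.84, -0.83 and 0.91. The directions at 55.5 kb from PRE2 thus held without it. From the gypsy2 viewpoint the first window had -0.10, -0.73 and 0.18 with all bins and -0.53, -0.94 and -0.17 without that bin. The pupal sign thus changed there, with overlap both ways. Embryo gypsy2 minus titled WT there went from 0.07 with overlap to -0.35 without overlap.

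The genes of the region were also counted over their own bins. The 119 bins of mtgo had 5.26% from PRE2 in embryo gypsy2, 4.55% in titled WT and 4.23% in WT, 5.19% in larval gypsy2 and 3.99% in WT, and 3.57% in pupal gypsy2 and 2.89% in WT, with log2 differences from WT of 0.31, 0.38 and 0.30. The 4 bins of CG4631 had 0.301, 0.326 and 0.311% in embryo gypsy2, against 0.168, 0.174 and 0.187% in titled WT and 0.120, 0.141 and 0.133% in WT. The log2 differences of CG4631 from WT were 1.25 in embryos, 1.13 in larvae and 0.15 in pupae. CG31815, which shares 1 of those bins, differed by 0.66, 0.46 and 0.01. The 2 bins of CG31816 were higher in gypsy2 than in WT at each stage without overlap, unlike its window at 55.5 kb, which was lower in embryos and larvae. They had 0.0754, 0.0963 and 0.0747% in embryo gypsy2, against 0.0234, 0.0252 and 0.0289% in titled WT and 0.0609, 0.0504 and 0.0576% in WT. Larval gypsy2 had 0.0588, 0.0696 and 0.102%, against 0.0396, 0.0433 and 0.0270% in WT, and pupal gypsy2 0.0573, 0.114 and 0.114%, against 0.00133, 0.0230 and 0.00367% in WT. The log2 differences of CG31816 from WT were 0.54, 1.06 and 4.23, the last against pupal WT shares as low as 0.00133%. The bin at 55 kb alone had 0.0352, 0.0469 and 0.0369% in embryo gypsy2, against at most 0.00103% in WT. The other bin of CG31816 thus had a lower mean in embryo gypsy2 than in WT, and a higher one in larvae and pupae. Whether the part from the bin at 55 kb reflects contact cannot be told, as stated above. CG5968, whose single bin had 0 counts in every gypsy2 library and at most 0.00429% in any library, could not be compared.

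Over the 24 PRE2 libraries, the region's share was most like those of CG42818 (Pearson r of log2 shares 0.70), glu (0.66), which encodes a condensin subunit, and Trpgamma (0.64), which encodes a cation channel and lies next to mtgo, among the 41 genes of at least 3 kb compared within 500 kb. The libraries share their total as denominator and fall into 8 groups, so these values are descriptions.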

How the data were processed

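The authors deposited raw counts per 1-kb bin of dm6 for 24 samples and 2 viewpoints (48 columns in 6 tables, all used), without normalization. Per the labels the processing named Bowtie; no source used here states its version, the enzymes, any filter or whether PCR copies were removed, and such copies could raise single bins. The 30 largest bin values of 2L all end in 0, so they were rounded, and 0 of them lie in the mtgo region. Viewpoints were taken as the highest bin of each library. Hi-C and CUT&RUN libraries were not analysed here.

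Shares are percentages of the 2L counts outside 5 kb of the viewpoint, on which log2 differences of means of log2 values are based. Windows of 6 kb were fitted with edgeR 4.0.16 (TMM) in R 4.3.3, each comparison with its own 2 groups, and with DESeq2 1.42.0 as an alternative. Both steps around the fit were tested on simulated counts. Single values were compared by exact permutation and sign-flip tests in Python 3.11.15. Genes are those of the Ensembl annotation of dm6 and the sequences those of the RefSeq dm6 genome, with 1 sequence not reported here. Named windows were the 3 highest and 3 lowest mean differences between gypsy2 and WT from each viewpoint, the 3 highest WT shares from PRE2 and those with a protein-coding transcript start, 12 in all. The single bins were picked after seeing the values. The region, lists and rules were chosen with earlier results of these data known.

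Replicates differed beyond counting noise in all 48 pairs. The columns of gypsy1 carry the numbers 1, 3 and 4, which cannot be matched to its labelled replicates, and were used as a group. Columns of WT with the same numbers deviated together with them (correlations of 0.36, 0.42 and 0.28 for PRE2, with 0.54, 0.57 and 0.16 for the gypsy2 viewpoint), so that number also served as a block. No other set of same-numbered libraries had every correlation over 0.1, except WT larva with WT embryo from the gypsy2 viewpoint (0.13, 0.20 and 0.32).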

Additional observations from a re-analysis of the deposited data

Results flagged for a closer look

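Values are gypsy2 minus WT (or titled WT) at the later stage minus the same at the earlier one, on the log2 scale, and each is listed because every gypsy2 library lay above every control library at one stage and below every one at the other. None of these differences between stages was tested. From the gypsy2 viewpoint the share of the whole region differed by -0.41 between larvae and embryos with WT as the embryo control and by -0.24 with titled WT, being higher in embryo gypsy2 and lower in larval gypsy2. From PRE2 the first window (16540001 to 16546000) differed by 1.58 between pupae and embryos and by 1.68 between pupae and larvae. From PRE2 the window of CG5968 (16546001 to 16552000) differed by 0.90 between larvae and embryos with titled WT as the embryo control, and the window at 16630001 to 16636000 by 0.75 between pupae and embryos. From the gypsy2 viewpoint the window at 16552001 to 16558000 differed by -1.29 between larvae and embryos, and by -1.39 with titled WT as the embryo control; it had 0.121, 0.134 and 0.133% in embryo gypsy2, against 0.0754, 0.0764 and 0.0695% in WT, and 0.0468, 0.0457 and 0.0392% in larval gypsy2, against 0.0593, 0.0581 and 0.0663% in WT.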

How the results depend on the processing

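Capping single bins and leaving out the 3 single bins moved no log2 difference of the region's share by as much as the spread between libraries. With the 2L counts over 200 kb as the whole, 5 of 17 moved: from PRE2 to 0.15 (embryo gypsy2 minus titled WT), 0.18 (larva) and 0.30 (pupa), and from the gypsy2 viewpoint to 0.027 (embryo gypsy2 minus titled WT) and 0.035 (pupa). WT larva minus embryo from PRE2 turned to 0.13, and without single libraries ran from -0.0905 to 0.0049 (0.0049 without embryo WT replicate 2).

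Counts of region windows called moved by over 1.5 times as follows; the cause was not tested. Windows shifted by 3 kb gave 7 (embryo gypsy2 minus titled WT), 8 (gypsy1) and 4 (larva) from PRE2 and 2 (gypsy1), 1 (larva) and 2 (pupa) from the gypsy2 viewpoint. Library sizes from counts over 200 kb gave 3 in larvae from PRE2. DESeq2 gave 1 (gypsy1) and 2 (larva) from the gypsy2 viewpoint. The column number as a replicate block, added after seeing the data, gave 10 for gypsy1 from PRE2 and 4 from the gypsy2 viewpoint. The labelled number as a replicate block moved none of the other 10 counts that far; same-numbered libraries there share only a number, except for WT larva and embryo from the gypsy2 viewpoint, and the counts from PRE2 were 3 (embryo gypsy2 minus titled WT), 7 (larva), 6 (pupa), 9 (WT larva minus embryo) and 6 (WT pupa minus larva), and from the gypsy2 viewpoint 11, 0, 0, 7 and 7. Without single libraries, the counts ran from 7 to 12 (embryo gypsy2 minus WT; 7 without WT replicate 1), 2 to 5 (embryo gypsy2 minus titled WT; 2 without titled WT replicate 4), 1 to 8 (larva; 1 without WT replicate 1 or 3) and 4 to 9 (WT larva minus embryo; 4 without embryo WT replicate 1) from PRE2, and from 0 to 3 (gypsy1), 0 to 1 (larva), 5 to 11 (titled WT minus WT) and 1 to 7 (WT pupa minus larva; 1 without larva WT replicate 1) from the gypsy2 viewpoint. The number of libraries limits the precision. Counting error was computed as if each count were a separate ligation, and any larger error from PCR copies was not measured.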
